A study of Oryctolagus cuniculus with 4 samples.

Results

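Genes of neutrophil granules and neutrophil attraction were followed over the ligamentum flavum of rabbits after spinal fusion. They are 6 of the 1489 genes that could be named on the array. The 6 are MCP2, CAMP, S100A9, BPI and SRGN, whose products are stored in or shape the granules and cytosol of neutrophils, and CXCR2, a chemokine receptor. All probes that carry a RefSeq transcript of these genes were taken, 10 probes printed as 14 spots. The genes had been picked with their signals on these arrays known, so their height at the fused levels is described here and not tested.

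The ligamentum flavum is the elastic ligament between neighbouring vertebral arches. The samples came from male rabbits aged 34 weeks. The labels describe 1 operation, done at 18 weeks of age, that removed muscle over L3/4 and joined the adjacent levels by instrumented posterolateral fusion, and they give all 4 samples, controls included, a time of 16 weeks after surgery. The 4 groups were the fused levels (L2/3 and L4/5), the intervertebral stress concentration (ISC) level between them (L3/4), a control of L2/3 and L4/5 (the L2/3, L4/5 control, which is level-matched to the fused samples), and a control of L3/4 (the L3/4 control, level-matched to the ISC sample). Each was hybridised to 1 single-colour Agilent array, and all 4 arrays lay on 1 slide. Whether RNA of several animals or of both fused levels was pooled, and what was done at the control levels or in which animals these lay, is not given in the sources used here, so that effects of fusion, of instrumentation and of surgery near the ligament cannot be told apart. Since each group is 1 array, ratios carry no error or p-value, the spread between animals is unknown, and the number of arrays limits precision.

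Neutrophils are short-lived white cells made in bone marrow that reach tissues through the blood. Their granule proteins are made mainly by precursors in the marrow and packed for later release, while chemokine receptors such as CXCR2 belong to the mature cell and guide it along gradients of ligands such as CXCL8. In a whole-tissue sample, transcripts of these genes may come from blood in vessels, from cells in the ligament or from marrow of neighbouring bone. In such bulk samples, fewer cells of a type and less RNA per cell cannot be told apart.

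Levels are log2 of the scanner's processed signal minus the 75th percentile of each array, which was a signal of 85.4 at the fused levels, 93.8 at the ISC level, 72.8 in the L2/3, L4/5 control and 53.4 in the L3/4 control. A level of 0 is thus the signal that 75% of the array's probes lie at or below. Between 59.6% and 67.9% of probes per array were well above background, the scanner's mark for a spot clearly brighter than its surroundings. All 10 probes of the 6 genes carried this mark on all 4 arrays, and no spot was saturated. The dimmest of them, a CAMP probe in the L2/3, L4/5 control, was 2.25 times as bright as the dimmest marked probe of its array. The scanner's own error for these probes was between 10% and 14.3% of the signal, a technical figure for single spots.

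MCP2 is a rabbit defensin, a small cationic peptide that damages microbial membranes. The symbol stands for macrophage cationic peptide, since rabbit lung macrophages hold the peptide as well as neutrophils, and it is not the chemokine that shares the name in human. Its single probe had a signal of 19461 at the fused levels and 404 at the ISC level, against 234 in the L2/3, L4/5 control and 424 in the L3/4 control. On the scaled log2 scale these were levels of 7.83, 2.11, 1.69 and 2.99, in the same order. The fused array stood apart, and the other 3 lay within a range of 1.30. MCP2 was thus higher at the fused levels by 6.15 on the log2 scale than in the level-matched control, by 4.84 than in the L3/4 control and by 5.72 than at the ISC level.

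CAMP encodes the precursor of cathelicidin, an antimicrobial peptide of specific granules. Its probe of highest mean log2 signal over all arrays stands for it here. That probe had a signal of 3037 at the fused levels and 83.6 at the ISC level, against 36.6 in the L2/3, L4/5 control and 80.5 in the L3/4 control. The fused array was again the high one, and the L2/3, L4/5 control was the lowest. CAMP was higher at the fused levels by 6.14 on the log2 scale than in the level-matched control, by 4.56 than in the other control and by 5.32 than at the ISC level. CAMP is the only one of the 6 genes with several probes, and its 5 probes gave close ratios: 6.13 to 6.33 to the level-matched control, 4.48 to 4.65 to the other control and 5.22 to 5.38 to the ISC level. One of these probes was printed 5 times on each array, with an SD of log2 signal over its spots of 0.067 at the fused levels, 0.128 at the ISC level, 0.113 in the L2/3, L4/5 control and 0.091 in the L3/4 control. That spread is technical and says nothing of the spread between animals.

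**Figure D1:**
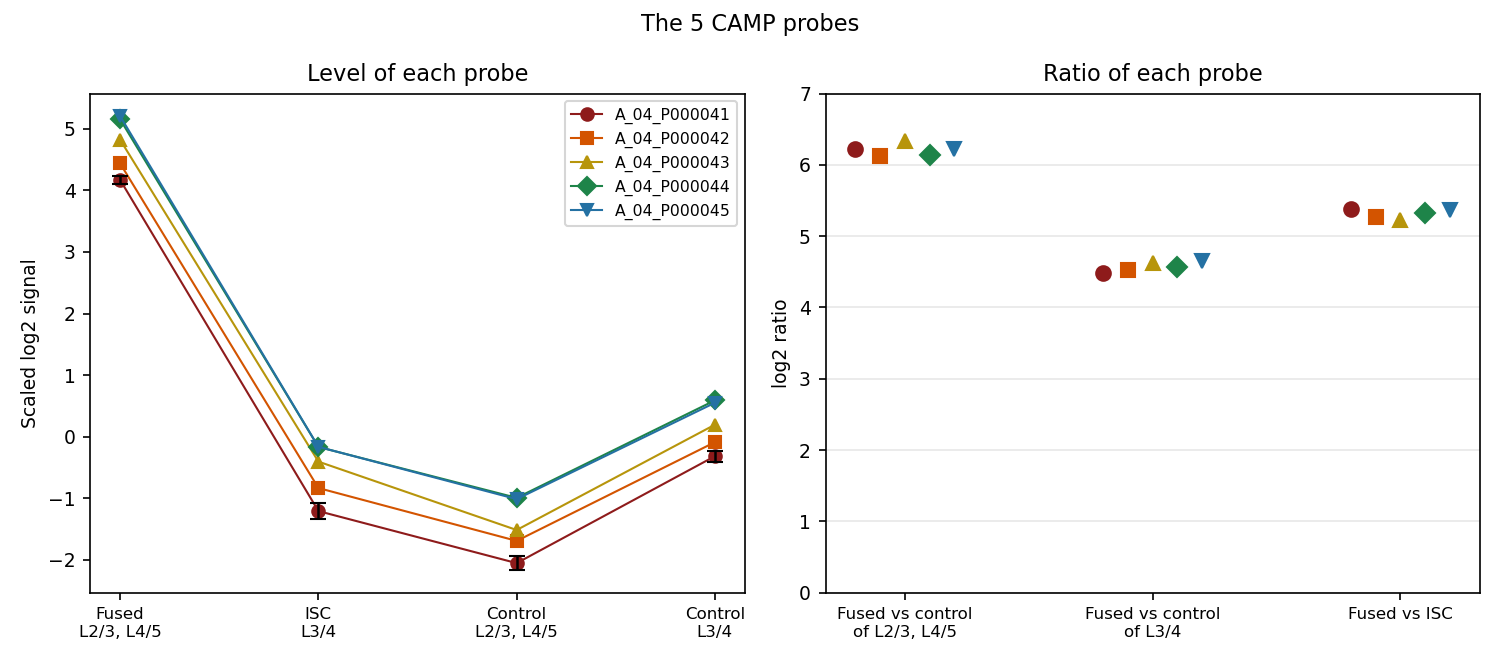
The left panel plots the scaled log2 signal of each of the 5 CAMP probes (lines join the values of 1 probe; bars are the SD over 5 spots of the probe that was printed repeatedly) on the fused, ISC and both control arrays. The right panel plots the log2 ratio of the fused array to each other array, which lay between 4.48 and 6.33 for every probe.

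S100A9 encodes a subunit of calprotectin, the abundant calcium- and zinc-binding protein of the neutrophil cytosol. Its signal was 918 at the fused levels and 24.7 at the ISC level, against 19.2 in the L2/3, L4/5 control and 30.8 in the L3/4 control. The levels were 3.43, −1.93, −1.92 and −0.80 in that order, so that the ISC level and the L2/3, L4/5 control were within 0.01 of each other. The ratio of the fused levels was 5.35 to the level-matched control, 4.22 to the L3/4 control and 5.35 to the ISC level. The setting called normexp here is a background correction that adds an offset to every signal, followed by quantile normalization in place of the scaling. After normexp, the ratios of S100A9 were 3.43, 3.06 and 3.53 in the same order. BPI encodes the bactericidal permeability-increasing protein, which binds the lipopolysaccharide of Gram-negative bacteria and lies in azurophil granules. BPI had a signal of 577 at the fused levels and 32.6 at the ISC level, against 28.4 in the L2/3, L4/5 control and 33.4 in the L3/4 control. After scaling, the 3 lower arrays spanned 0.84, and the fused array was higher by 4.12, 3.44 and 4.28 on the log2 scale than the level-matched control, the L3/4 control and the ISC level. These were 2.66, 2.34 and 2.75 after normexp, and the CAMP ratios were then 4.72, 3.91 and 4.31.

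SRGN encodes serglycin, the proteoglycan that packs cationic proteins into secretory granules. It is known from many blood-derived cells and from endothelium, so it is a less specific sign of neutrophils than the other 4 granule genes. Its signal was 2808 at the fused levels and 135 at the ISC level, against 82.0 in the L2/3, L4/5 control and 141 in the L3/4 control. The fused array was above the other 3, by 4.87 on the log2 scale to the level-matched control, 3.64 to the L3/4 control and 4.51 to the ISC level. The 3 lower arrays spanned 1.23.

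CXCR2 differed from the granule genes in size. This receptor of CXCL8 and related chemokines had a signal of 148 at the fused levels and 60.3 at the ISC level, against 50.4 in the L2/3, L4/5 control and 34.2 in the L3/4 control. Its levels were 0.79 at the fused levels, −0.64 at the ISC level, −0.53 in the L2/3, L4/5 control and −0.64 in the L3/4 control, and the 3 lower arrays lay within 0.11 of each other. The ratio of the fused levels was 1.32 to the level-matched control, 1.43 to the L3/4 control and 1.43 to the ISC level. After normexp these ratios were 0.82, 0.82 and 0.84, all under 2-fold.

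**Figure D2:**
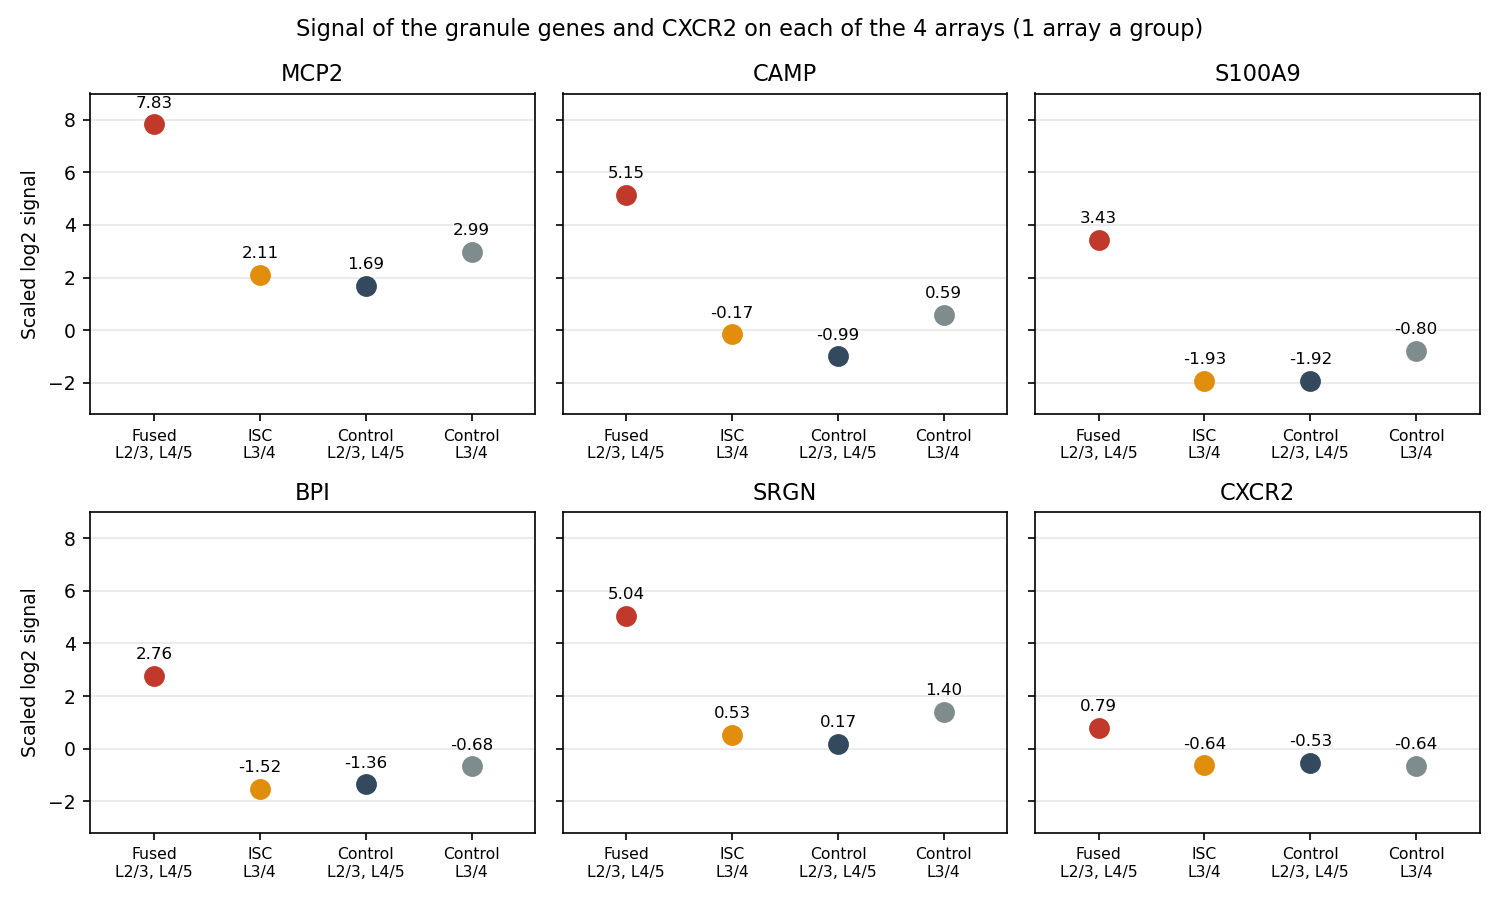
Each panel plots the scaled log2 signal of 1 gene on the fused, ISC, control L2/3 and L4/5, and control L3/4 arrays, 1 point per array. CAMP is plotted by its probe of highest mean log2 signal. The fused array was highest in every panel, from 0.79 for CXCR2 to 7.83 for MCP2, and the panels are not meant for comparing levels between genes, since each probe has its own brightness.

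Counted at 2-fold, a fixed size and not a test, 6 of 6 genes were higher at the fused levels than in the level-matched control, where 7.84% of the 13717 features measured on both arrays were higher and 9.12% lower. Features are named genes plus unnamed transcript identifiers and probes. Likewise 6 of 6 were higher than in the L3/4 control, beside 11.2% of 13352 features (13% were lower), and 6 of 6 were higher than at the ISC level, beside 7.75% of 14564 features (6.99% were lower). The 3 comparisons share the fused array, and the genes were chosen for this height, so nothing is read from these counts. The median ratio of the 5 granule genes was 5.35, 4.22 and 5.32 in these comparisons, while the median over all features was −0.13, −0.19 and −0.05. Ranked from the highest ratio to the level-matched control, MCP2 was at place 22, CAMP at 23, S100A9 at 53, SRGN at 72, BPI at 113 and CXCR2 at 703.

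**Figure D3:**
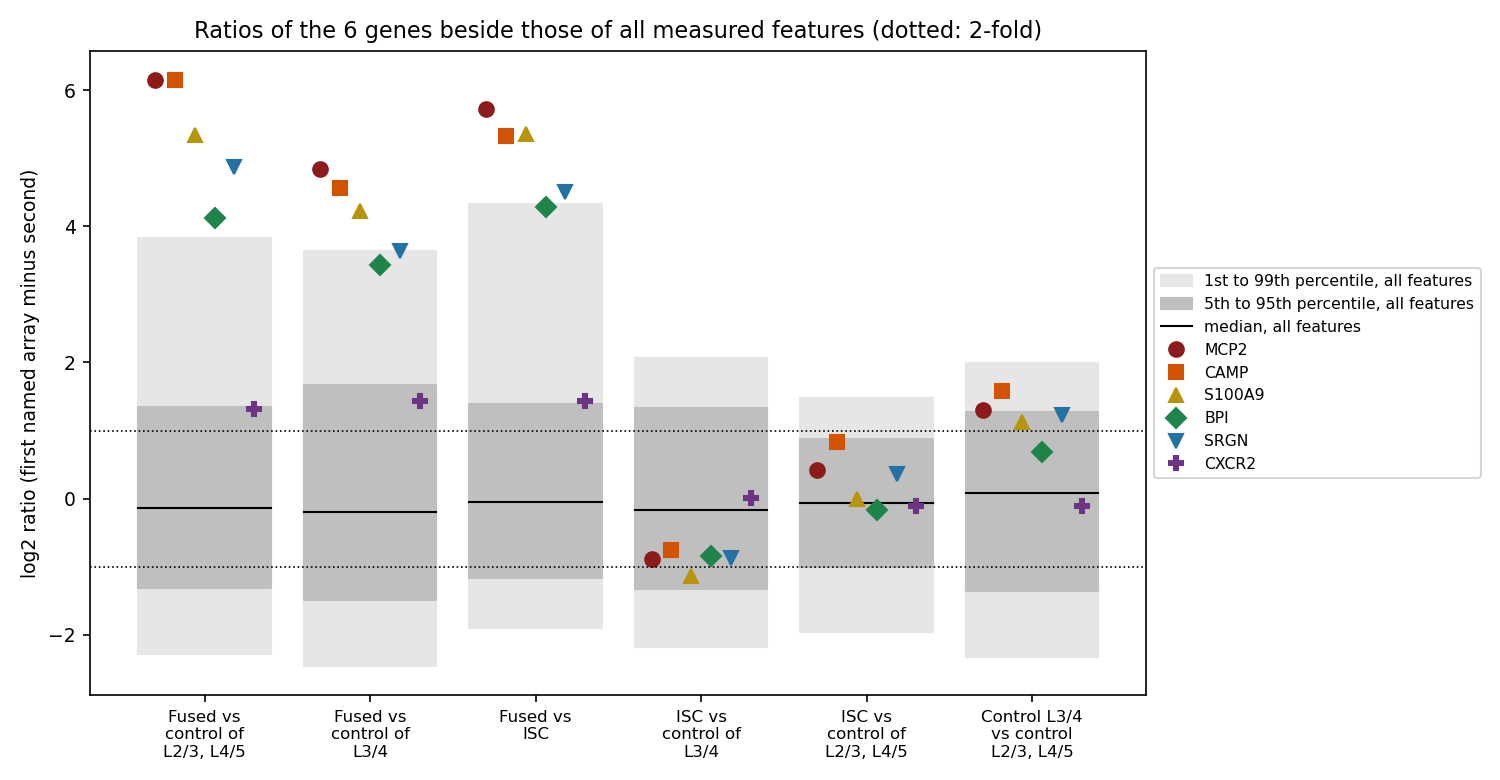
For each of 6 pairs of arrays, points are the log2 ratios of the 6 genes, grey boxes the 1st to 99th and the 5th to 95th percentile of the ratios of all measured features, and the black line their median. The 5 granule genes lay between 3.44 and 6.15 at the fused levels in all 3 pairs with that array, whereas CXCR2 lay between 1.32 and 1.43, near the 95th percentile.

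The ISC level did not show the height of the fused levels. Against the L3/4 control, its level-matched one, the 5 granule genes were all below 0: S100A9 at −1.13, MCP2 at −0.88, SRGN at −0.87, BPI at −0.84 and CAMP at −0.76. Only S100A9 was 2-fold lower, 1 of 6 genes, beside 10.5% of 13729 features, and 0 were 2-fold higher, beside 9.11%. CXCR2 was at 0.01. Against the L2/3, L4/5 control the same genes had ratios of CAMP 0.83, MCP2 0.42, SRGN 0.36, S100A9 −0.01, CXCR2 −0.11 and BPI −0.16, and 0 of 6 were 2-fold lower, beside 5.02% of 14114 features, and 0 were 2-fold higher, beside 3.56%. At the ISC level the sign of CAMP, MCP2 and SRGN therefore depended on which control array was used. The scaling mattered too: as unscaled signals, an alternative added after the data were seen, MCP2 was at −0.07, CAMP at 0.06, S100A9 at −0.32, BPI at −0.03, SRGN at −0.06 and CXCR2 at 0.82 against the L3/4 control, with the median of all features at 0.65 there and −0.16 after scaling.

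The control arrays differed from each other in the granule genes. In the L3/4 control, set against the L2/3, L4/5 control, CAMP was higher by 1.58 on the log2 scale, MCP2 by 1.30, SRGN by 1.23 and S100A9 by 1.12, while BPI was at 0.68 and CXCR2 at −0.11. Thus 4 of 6 genes were 2-fold apart between controls, beside 8.43% of 13137 features that were higher and 9.14% that were lower. After normexp 0 of 6 were, and the number of all features 2-fold higher fell as well, from 1108 to 176. With no scaling 1 of 6 was, beside 446 features that were higher. For CAMP, MCP2 and SRGN the scaled differences between controls were larger than those of the ISC level from either control, for S100A9 about the same, and for BPI smaller than that from the L3/4 control.

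Likeness of profile was measured as the root mean square difference of scaled log2 levels over the 4 arrays, each gene centred on its own mean. MCP2 was 0.18 from CAMP, S100A9 0.33, SRGN 0.47, BPI 0.72 and CXCR2 1.81. These genes were chosen with their height on the fused array known, and that array weighs most in the profile of CAMP. The closeness of the granule genes to CAMP thus follows in part from that choice, and nothing is read from it. Of the 15312 features well above background at the fused levels, 57 were within 0.5 of CAMP and 1879 within 0.5 of CXCR2. By this measure genes that differ little between arrays lie close together, so many features resembled CXCR2 and few resembled CAMP.

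The 4 named genes nearest to CAMP outside the 6 were LOC100009134 at 0.36, LOC100009135 and LOC100009136 at 0.40 and LOC100009166 at 0.42. Picked by likeness to CAMP, they share its height on the fused array by that choice. In the gene order of the RefSeq annotation of rabbit assembly mOryCun1.1, LOC100009134, LOC100009135 and LOC100009136 are the fifth, the fourth and the third gene before MCP2, and all 3 were well above background on every array. LOC100009136 carries the synonym NP-5, a name used for a rabbit neutrophil defensin. The table gives no other name for the remaining LOC genes. The levels of LOC100009134 were 7.02 at the fused levels, 0.83 at the ISC level, 0.22 in the L2/3, L4/5 control and 2.32 in the L3/4 control. Those of LOC100009136 were 9.03, 4.09, 2.40 and 5.02 in the same order, and those of LOC100009135 were 9.06, 4.01, 2.39 and 5.05. Whether the probes of these genes, or the MCP2 probe, bind each other's transcripts or that of the adjacent gene MCP-1, not analysed here, was not tested.

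At the fused levels the ratio to the level-matched control was 6.79 for LOC100009134, 6.66 for LOC100009135, 6.63 for LOC100009136 and 6.70 for LOC100009166. To the L3/4 control it was 4.69, 4.00, 4.01 and 4.01, in the same order. The controls themselves were further apart in these genes than in MCP2, with LOC100009134 higher by 2.10 and LOC100009166 by 2.69 in the L3/4 control. LOC100009166 lies near CAMP in the same annotation, 17 places away. Of 12741 features well above background on all 4 arrays, 78 were at least 16-fold higher at the fused levels than on each other array, and 7 of these could be named: CAMP, MCP2, S100A9 and these 4 LOC genes. Since 8.70% of probes carry a name, most of such features are unnamed here.

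The other 4 of the 8 named genes nearest to CAMP were IL1B, CTSE, FPR1 and CELF3. They entered through the fused array, and since CTSE, FPR1 and CELF3 were not well above background on the other 3 arrays and IL1B was not in the L2/3, L4/5 control, their distances and order are not given. IL1B, the proinflammatory cytokine interleukin-1 beta, was at least 21.9-fold higher at the fused levels than in the level-matched control, where it was not well above background. It was higher by 3.75 on the log2 scale than in the L3/4 control and by 4.13 than at the ISC level. For such a bound the dim array is given the gene's own signal or that of its dimmest marked probe, whichever is brighter. CTSE, an aspartic protease, and CELF3, an RNA-binding protein known from brain, were well above background on the fused array alone, CTSE at least 6.16-fold above the level-matched control and CELF3 at least 2.03-fold. The 5 genes nearest to CXCR2 were LEP at 0.07, GET1 at 0.11, ATP1B2 at 0.12, DHDH at 0.14 and PTGER3 at 0.14, of which DHDH was not well above background in either control.

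CXCR1, the second CXCL8 receptor, is the gene directly before CXCR2 in the annotation and did not share its pattern. Its signal was 33.5 at the fused levels and 35.9 at the ISC level, against 45.0 in the L2/3, L4/5 control and 32.2 in the L3/4 control. CXCR1 differed by less than 2-fold, at −0.66 to the level-matched control and −0.62 to the L3/4 control, and was at 0.03 to the ISC level. CXCL8, the only CXCR2 ligand of the list that could be named, was higher at the fused levels by 1.05 than in the level-matched control and by 1.29 than in the L3/4 control, and was at 0.89 to the ISC level. Its measured probes ranged from 0.79 to 1.79, 0.70 to 2.55 and 0.83 to 1.67 in the same order.

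**Figure D4:**
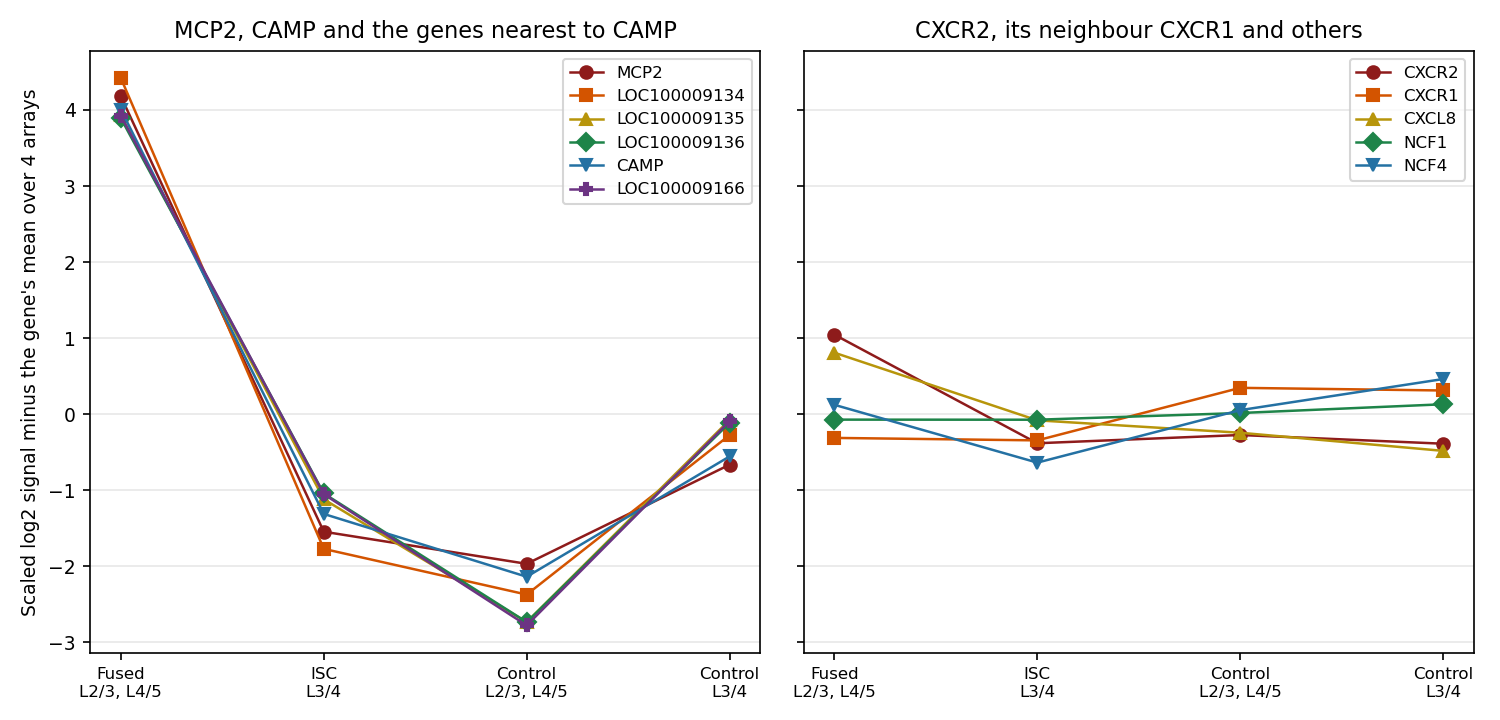
Scaled log2 signal minus each gene's mean over the 4 arrays; lines join the values of 1 gene and imply no order of the arrays. On the left are MCP2, CAMP and the 4 LOC genes, with the fused array high and the L2/3, L4/5 control lowest. The LOC genes were picked as the named genes nearest to CAMP, so their closeness to it follows from that choice. On the right, CXCR2 was high on the fused array, where CXCR1 was not, beside CXCL8, NCF1 and NCF4.

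Other neutrophil receptor and oxidase genes at the fused levels ranged from ratios near 0 to bounds above 2-fold. FPR1, the receptor of bacterial formyl peptides, was well above background on the fused array alone, with bounds of at least 3.57-fold higher than the level-matched control, 3.41-fold than the L3/4 control and 5.51-fold than the ISC level. CYBB, the catalytic subunit of the phagocyte oxidase, was at least 4.11-fold higher than the level-matched control and at least 3.93-fold higher than the other control, and by 2.41 on the log2 scale higher than the ISC level. Of the cytosolic oxidase subunits, NCF1 was at −0.09 to the level-matched control, −0.20 to the L3/4 control and 0.00 to the ISC level, and NCF4 at 0.07, −0.34 and 0.76 in the same order.

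TLR4, a receptor of lipopolysaccharide, was at 0.98 to the level-matched control and at least 5.44-fold above the L3/4 control. CD14, its co-receptor, was higher by 1.07 and 1.55 than the controls in the same order. TLR2 was at 0.48 and 1.72. Without CXCR2, 1 of the 6 measured genes of this list, CD14, was 2-fold higher at the fused levels than in the level-matched control and 0 were lower, with a median of 0.28. Measured means well above background on both arrays, so FPR1 and CYBB are not counted there.

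Of the granule list, 12 genes could be named, and 5 of them are MCP2, CAMP, S100A9, BPI and SRGN. Of the other 7, 4 were measured at the fused levels and in the level-matched control, 1 was 2-fold higher and 0 lower, with a median of 0.65. The higher one was HP, the haemoglobin-binding protein haptoglobin, at 1.71, and it was at 2.16 to the L3/4 control. CYBA, the partner of CYBB, was at 0.57 and 0.83, ANXA1, the cytosolic protein annexin A1, at 0.72 and 0.76, and CD63, a membrane protein of azurophil granules and lysosomes, at −0.04 and −0.69. MMP9, a gelatinase of neutrophils and other cells, was not well above background in either control and was lower by 1.30 on the log2 scale on the fused array than on the ISC array. ARG1 was not well above background on any array. The defining neutrophil markers MPO, ELANE, CTSG, AZU1, PRTN3, LTF, LCN2, MMP8, S100A8, CSF3R and ITGAM could not be named on this array and are not analysed here. The name neutrophil therefore rests on few genes. The height of CAMP, S100A9 and BPI at the fused levels was not shared by CXCR1, NCF1, NCF4, CD63 and MMP9. Nor was it shared by CXCR2, CYBA, ANXA1, HP, TLR2 and CD14.

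The same lists were also followed at the ISC level. Against the L3/4 control, 9.11% of 13729 features were 2-fold higher there and 10.5% lower. In the granule list without the 5 genes, 1 of 4 measured was 2-fold higher than in the L3/4 control, HP at 1.32, and MMP9 was at least 2.22-fold higher. In the receptor and oxidase list without CXCR2, TLR2 was higher by 1.60, NCF4 was lower at −1.10, and the other 3 measured genes were under 2-fold. TLR4 was at least 2.70-fold higher there than in the L3/4 control. Against the L2/3, L4/5 control, 0 of 4 and 0 of 6 measured genes of these lists were 2-fold apart in either direction, and MMP9 was at least 2.33-fold higher. Of 14114 features, 3.56% were 2-fold higher in that comparison and 5.02% lower.

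Genes listed for neutrophil recruitment and output were mixed, some higher at the fused levels and some not. Of this list VCAM1, IL1RN and SELE had the highest mean signal. VCAM1, an endothelial adhesion molecule, was higher at the fused levels by 2.21 than in the level-matched control, by 2.27 than in the other control and by 2.16 than at the ISC level. Its 5 probes disagreed, with ratios of 1.71 to 2.21, −0.21 to 2.27 and 0.79 to 2.16 in the same order. IL1RN, the antagonist of the interleukin-1 receptor, was higher by 2.79, 1.97 and 2.69 in the same order. SELE, the endothelial E-selectin that slows neutrophils in vessels, was at 0.55, −0.19 and 0.53. PTGS2, the inducible cyclooxygenase, named after its value was seen, was at 2.45, 1.98 and 0.67 by its representative probe, but its other measured probe was at 0.14, −0.63 and −0.25. In all, 3 of 5 measured genes of this list were 2-fold higher than in the level-matched control and 0 lower, with a median of 2.21. The list had 10 genes that could be named, of which CSF2, IL6 and TNF were not well above background on any array. Whether recruitment of neutrophils differed was not tested. CCL2, also named after its value was seen, was at −0.998 to the level-matched control, just under 2-fold lower. It was at 0.16 to the L3/4 control and at −1.38 to the ISC level.

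Haemoglobin genes, the markers of red cells, had the same order of arrays as MCP2, CAMP and SRGN. Their mean level over HBA and HBB2 was 9.17 at the fused levels and 7.76 at the ISC level, against 7.09 in the L2/3, L4/5 control and 8.61 in the L3/4 control. The mean ratio of both genes was 2.08 for the fused levels to the level-matched control, 0.56 to the L3/4 control and 1.41 to the ISC level. HBA had 3 probes, whose ratios were 2.10 to 2.67, 0.46 to 1.17 and 1.40 to 1.92 in the same order. Its representative probe lay at or near the low end of each range. CA2, of the same list, was at least 5.06-fold higher than the level-matched control. On the log2 scale CA2 was higher by 1.37 than in the L3/4 control and by 2.15 than at the ISC level. The mean ratio of HBA and HBB2 was −0.85 for the ISC level to the L3/4 control, and 1.52 for the L3/4 control to the L2/3, L4/5 control. At the fused levels the ratios of MCP2 and CAMP exceeded the haemoglobin ratio by 4.28 and 4.00 against the L3/4 control and by 4.06 and 4.06 against the level-matched control. In the level-matched comparison the excess was 3.26 for S100A9, 2.78 for SRGN and 2.03 for BPI, while CXCR2 was below the haemoglobin ratio, at −0.76. The ratio of CXCR2 differed from that of haemoglobin by 0.87 against the L3/4 control and by 0.02 against the ISC level. Between the ISC level and the L3/4 control, the ratios of the granule genes differed from the haemoglobin ratio by −0.28 for S100A9 to 0.09 for CAMP, and that of CXCR2 by 0.85. The part of blood in these ratios was not tested.

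Markers of other cell types were set beside the same comparison. Of 5 measured lymphocyte genes, 1 was 2-fold higher at the fused levels than in the level-matched control, the cytokine gene IFNG at 2.42, with CD4 at −0.08 and CD5 at −0.22. Of 3 measured macrophage and monocyte genes 1 was higher, CD14, and 1 lower, with SPP1 at −0.63. CD80, not well above background in the level-matched control, was at least 1.64-fold higher, and was at −0.03 to the L3/4 control. MSR1, named after its value was seen, was well above background on the fused and ISC arrays and in neither control. All 4 measured adipocyte genes were higher, among them LPL at 2.55, PPARG at 2.63 and ADIPOQ at 1.32, and both measured proliferation genes were, TACC3 at 3.79 and CCNA2 at 1.23. Against the L3/4 control, 3 of 4 adipocyte genes were 2-fold higher, with PPARG at −0.22. Set against the level-matched control, the bone list had 0 of 3 measured genes 2-fold apart. The platelet and mast cell list had 0 of 1 (ITGB3 at 0.07, with 4 measured probes between 0.07 and 2.85), and the endothelial list 1 of 4 higher, VCAM1. Set against the L3/4 control, 1 of 3 bone genes was 2-fold higher, MMP13 at 2.35, and 1 lower, SPP1 at −1.15. The endothelial list then had 1 of 4 higher and 1 lower.

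Of 7 ligament genes that could be named, all but TNMD were well above background on every array. TNMD, named after its value was seen, was well above background on every array except the fused one. COL1A2 was at a level of 7.80 at the fused levels and 8.79 at the ISC level, against 8.41 in the L2/3, L4/5 control and 7.90 in the L3/4 control. Of 6 measured ligament genes 0 were 2-fold higher and 3 lower on the fused array than in the level-matched control, BGN among them at −2.07. OGN was at 0.18 by its representative probe, with 5 probes between 0.18 and 1.46. Skeletal muscle genes set the L2/3, L4/5 control apart, with a mean level of −1.01 at the fused levels and −0.31 at the ISC level, against 4.63 in that control and −0.15 in the L3/4 control. All 15 measured muscle genes were therefore lower on the fused array than in that control, with a median of −5.56, and 5 of 12 were lower than in the L3/4 control. The part of these tissue differences in the ratios of the granule genes was not tested.

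**Figure D5:**
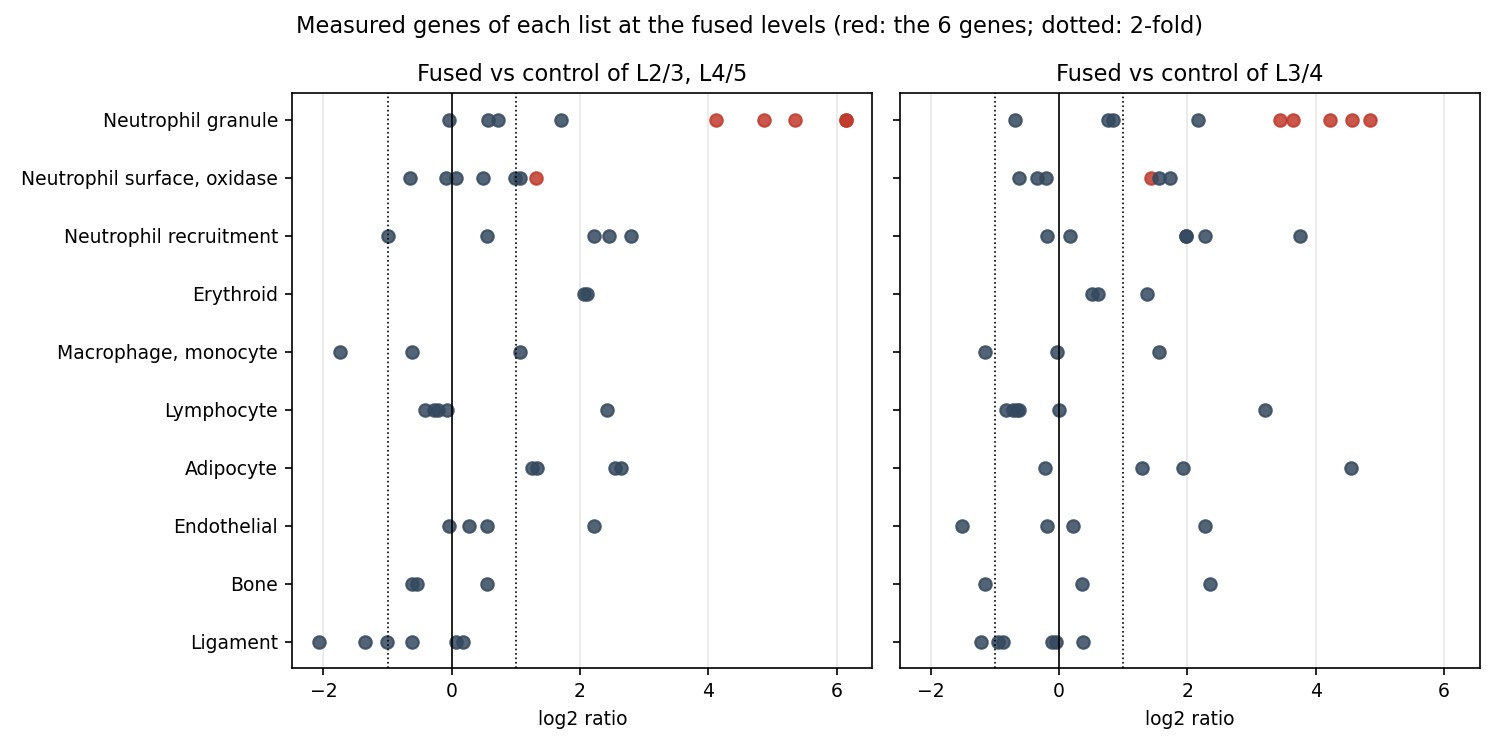
Each point is the log2 ratio of 1 gene measured on both arrays, by list, for the fused levels set against the L2/3, L4/5 control (left) and the L3/4 control (right); red points are MCP2, CAMP, S100A9, BPI, SRGN and CXCR2. The 5 granule genes lay between 3.44 and 6.15 and CXCR2 at 1.32 and 1.43, while the other granule genes lay between −0.69 and 2.16.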

How the data were processed

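Per the labels, Cy3-labelled material from total RNA of the ligament was put on Agilent arrays, 1 per group. Per the submitters' processing notes, the scanner software was Agilent Feature Extraction 12.0.3. The deposited values are linear spot intensities, and per the file headers the processed signal is corrected for background within each array and not scaled between arrays. The deposited scanner marks (well above background, outlier, saturated) were used as given. The authors' deposited value table equals the processed signal times 1 factor per array (fused 24.7, ISC 23.3, L2/3, L4/5 control 29.3, L3/4 control 37.5). Its medians are 498, 516, 504 and 442 in that order, and how the factors were chosen is not known.

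From these, log2 was taken, the 75th percentile of the array's non-control probes subtracted, and spots of 1 probe averaged. Control spots and 3 to 7 outlier spots per array were left out. Where a gene had several probes, the one of highest mean log2 signal stands for it. RefSeq identifiers were looked up in a table of assembly mOryCun1.1, which named 3792 of 43603 probes. The array design refers to another build, so no coordinates are given, and the files used here hold no sequences of the probes. Ratios need both arrays well above background; otherwise a bound is given. With 1 array per group no test was made. The ratio script was tested on simulated data.

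The genes, the 14 lists (287 symbols, 89 on the array) and the rule for named genes were chosen with earlier results of these data known. The rule names the 6 genes, all members of the granule, receptor and ligand lists that could be named (some genes are not reported here), up to 3 genes of highest mean log2 signal of each other list, and the named genes nearest in profile to CAMP (8) and CXCR2 (5). Alternatives were quantile normalization, cyclic loess, median centring, and normexp with an offset of 50 on the median spot signal followed by quantile normalization (limma 3.58.1, R 4.3.3). Further alternatives were averaging all probes of a gene, the authors' scaling, the mean of both controls, other fold sizes and no scaling. Python 3.11.15 with pandas 2.3.3 was used otherwise.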

Additional observations from a re-analysis of the deposited data

Results flagged for a closer look

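In each of these genes the fused levels and the ISC level lay on opposite sides of their own controls, both by more than 1.5-fold. The difference between both ratios (fused minus ISC, log2) was not tested, since each rests on single arrays. The sign at the ISC level rests on the L3/4 control: against the L2/3, L4/5 control the ISC ratio was nearer to 0 for S100A9 and BPI and turned for the others below with a positive difference, to 0.42 for MCP2, 0.83 for CAMP, 0.36 for SRGN, 0.60 for LOC100009134, 1.62 for LOC100009135, 1.69 for LOC100009136, 1.72 for LOC100009166, 0.70 for HBA, 0.65 for HBB2, 0.10 for IL1RN, 0.06 for TACC3 and 0.86 for PPARG. Of the 6 genes, the difference was 7.03 for MCP2, 6.90 for CAMP, 6.48 for S100A9, 5.74 for SRGN and 4.96 for BPI. It was 8.29 for LOC100009134, 7.71 for LOC100009135, 7.66 for LOC100009166 and 7.55 for LOC100009136. HBA at 2.99 and HBB2 at 2.87, both haemoglobin genes, met the same criterion, as did IL1RN at 3.51, TACC3 at 5.75 and PPARG at 4.63. In the opposite direction it was −3.34 for BGN, −2.54 for CCL2 and −1.51 for COL1A2. CXCR2 did not meet it, with its ISC ratio at 0.01.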

How the results depend on the processing

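No paired analysis was possible because each group has 1 array, and for the same reason no replicate could be left out. All 6 genes were 2-fold higher at the fused levels under each scaling tried except normexp, under which CXCR2 was not. The single 2-fold lower gene at the ISC level against the L3/4 control was 0 genes under normexp, at a size of 4-fold, against the mean of both controls and with no scaling (added after the data were seen), and 5 at a size of 1.5-fold. Of all features, 1437 were 2-fold lower in that pair, against 179 under normexp and 255 with no scaling. The 4 genes 2-fold higher in the L3/4 control than in the L2/3, L4/5 control were 0 under normexp and at 4-fold, and 1 with no scaling. Between these controls 1108 features were 2-fold higher, against 176 under normexp and 446 with no scaling. Shares of all features at 4-fold and 1.5-fold are not given here, so nothing is read from the counts at those sizes. Of 264 ratios of the 6 genes recomputed, 230 moved by less than 1.5-fold and 34 by more, 16 of these under normexp, 12 with no scaling and 6 with the mean of both controls. No called ratio changed sign. Among all features, the share of 2-fold differences that were higher was 46.5% for the ISC level against the L3/4 control, but 58.9% with the authors' scaling, 63.9% under normexp and 94.5% with no scaling. For the fused levels against the level-matched control it was 46.2%, but 60.7% under normexp and 65.3% with no scaling. For the fused levels against the L3/4 control it was 46.4%, but 61.1% and 88.2%, and against the ISC level 52.6%, but 63.8% and 41.0%, under the same 2 settings. For the ISC level against the L2/3, L4/5 control it was 41.5%, but 24.5% and 79.8%, and for the L3/4 control against the L2/3, L4/5 control 48.0%, but 37.1% and 14.9%. The medians of all features with no scaling lay between −0.36 and 0.65 in the 6 comparisons. Normexp and offsets shrink ratios of dim probes by construction, and the control signals of S100A9, BPI, CXCR2 and some CAMP probes were dim.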
